A study of Mus musculus with 38 samples.

Results

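The genes described here are the 86 mouse genes that name a protein of the cytoplasmic ribosome. They were taken by symbol from the 21951 protein-coding genes of the GENCODE M21 annotation of mm10, as names that begin with Rpl or Rps and a number, together with Rpsa, Rplp0, Rplp1 and Rplp2 and without Rps6k kinases and pseudogenes. By name, 52 belonged to the large subunit and 34 to the small subunit. The rule also takes in paralogs (Rpl3l, Rpl7l1, Rpl10l, Rpl22l1, Rpl36al, Rpl39l, Rps27l and Rps27rt) and Rps19bp1, a protein that binds Rps19, and 77 core genes remained without them. A gene was counted as having a peak when the centre of a ChIP-seq peak lay within 1 kb of the 5′ end of its gene record, called its start below.

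The study asked how RUNX1 and its partners occupy the genome before and after lymphoid progenitors meet a Notch ligand. All samples came from Cas9-LP, a mouse line of lymphoid progenitors that originated in the fetal liver. The donor animals were Ebf1-deficient and bore a Rosa26-Cas9 knock-in allele, so every group lacks the B-lineage factor Ebf1 and carries Cas9. LP cells were grown on OP9 stroma, and Phase 1 and Phase 2 cells are progressive stages of culture on OP9-DLL4 stroma, which displays the Notch ligand DLL4. Antibodies were directed against the transcription factor RUNX1, the insulator protein CTCF, Med12 (a subunit of Mediator), the histone acetyltransferase p300 and Notch1-IC, the domain that Notch1 releases on activation. In guide cultures a retroviral vector brought in sgCont, sgCTCF, sgCbfb or sgMed12, where Cbfb is the partner of RUNX proteins, and the study's methods describe a pool of guides for each gene and a control guide directed at luciferase. The 38 samples formed 19 groups of 2 replicates, and the 17 ChIP groups were represented by 1 peak list each that merged both replicates, while the 2 input groups (4 samples) had no list. No spread between cultures could therefore be given, no value below carries a test, and the score attached to a peak was compared only with scores of the same list. Lists held 152 to 49116 peaks. The read depth behind them was not used, and a short list cannot be told apart from a shallow one. By the study's own account, cells deficient in Cbfb, Ctcf or Med12 were hard to obtain in number, and their data carried more noise.

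Ribosomal proteins assemble with ribosomal RNA into the 2 subunits that translate all nuclear messenger RNAs. Their genes are transcribed at a high rate in growing cells, mostly from short promoters with a single sharp start, and their messenger RNAs commonly begin with a C and a run of pyrimidines, the TOP element, through which their translation is adjusted to growth signals. In lymphoid cells the load of ribosome production is known to change as progenitors proliferate, and loss of single ribosomal proteins such as Rpl22 or Rps19 affects blood cells in particular.

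The promoters of 5 genes show the sequence features on which the results below turn. Each is the RefSeq promoter (mm10, GRCm38) from 200 bases before the annotated RefSeq start through the first 10 transcribed bases, read 5′ to 3′ on the strand of the gene, with the searched strings in capitals.
Rplp0 (chr5:115559267-115559476, plus strand): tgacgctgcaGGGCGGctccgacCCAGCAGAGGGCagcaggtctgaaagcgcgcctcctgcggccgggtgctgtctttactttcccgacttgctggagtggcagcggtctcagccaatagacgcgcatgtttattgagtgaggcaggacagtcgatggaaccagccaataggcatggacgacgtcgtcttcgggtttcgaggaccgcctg
Rpl38 (chr11:114668380-114668589, plus strand): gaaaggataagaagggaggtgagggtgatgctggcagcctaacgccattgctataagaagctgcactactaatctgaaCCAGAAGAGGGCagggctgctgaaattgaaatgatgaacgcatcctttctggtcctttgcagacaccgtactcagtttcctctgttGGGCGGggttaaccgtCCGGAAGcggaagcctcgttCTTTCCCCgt
Rpl5 (chr5:107900328-107900537, plus strand): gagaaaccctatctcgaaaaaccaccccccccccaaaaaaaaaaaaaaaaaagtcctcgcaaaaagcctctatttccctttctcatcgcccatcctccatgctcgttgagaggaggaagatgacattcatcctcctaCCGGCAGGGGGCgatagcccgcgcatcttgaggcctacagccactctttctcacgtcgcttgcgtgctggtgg
Rpl23 (chr11:97782430-97782639, minus strand): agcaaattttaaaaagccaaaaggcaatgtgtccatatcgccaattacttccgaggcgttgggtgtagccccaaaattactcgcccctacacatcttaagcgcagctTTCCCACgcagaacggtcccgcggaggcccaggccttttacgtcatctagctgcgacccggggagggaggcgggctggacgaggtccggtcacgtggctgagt
Rps27rt (chr9:114982730-114982939, minus strand): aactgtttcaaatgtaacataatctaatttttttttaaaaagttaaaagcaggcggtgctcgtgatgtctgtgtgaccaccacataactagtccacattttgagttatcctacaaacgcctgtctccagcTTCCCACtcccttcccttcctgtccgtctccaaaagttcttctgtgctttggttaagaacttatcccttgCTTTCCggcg
Rplp0, Rpl38 and Rpl5 are shown because CTCF peaks of high rank lay over them, and the capitals CCAGCAGAGGGC, CCAGAAGAGGGC and CCGGCAGGGGGC are their CTCF strings, exact in Rplp0 and with 1 mismatch in Rpl38 and Rpl5. GGGCGG in Rplp0 and Rpl38 is the SP string and CCGGAAG in Rpl38 the ETS string. Rpl23 was the single gene of the family with a Notch1-IC peak, and its TTCCCAC is the RBPJ string GTGGGAA on the opposite strand. Rps27rt, a retrogene of Rps27, is shown as a member with no peak in any list, although its first transcribed bases CTTTCC follow the TOP pattern, as do the CTTTCCCC of Rpl38.

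RUNX1, Med12 and p300 occupied the starts of nearly all ribosomal protein genes in both stages. In LP cells a RUNX1 peak was found at 78 of the 86 genes (90.7%, against 45.2% of all protein-coding genes), a Med12 peak at 77 (89.5%, against 44.7%) and a p300 peak at 79 (91.9%, against 46.6%). In Phase 1 cells the counts were 78 for RUNX1 (90.7%, against 45.9%), 78 for Med12 (90.7%, against 44.4%) and 80 for p300 (93.0%, against 47.2%). All 3 factors were present in both stages at 77 of the 86 genes (89.5%), compared with 8757 of all genes (39.9%). The large and small subunits were alike in this respect, with LP RUNX1 at 90.4% of the large-subunit and 91.2% of the small-subunit names. The nuclear genes for mitochondrial ribosomal proteins, a separate family of 78 genes, had LP RUNX1, Med12 and p300 peaks at 96.2%, 94.9% and 96.2% of their starts, so high occupancy by these 3 factors was shared with that family.

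CTCF divided the family. A CTCF peak lay at 37 of the 86 starts in LP cells (43.0%, against 22.2% of all genes) and at 38 in Phase 1 cells (44.2%, against 21.1%). The corresponding shares were 35.9% and 29.5% for mitochondrial ribosomal protein genes, 33.3% and 38.5% for 39 translation factors, and 26.1% and 30.4% for 46 ribosome biogenesis genes. Fau and Rack1, which encode ribosomal proteins but fall outside the name rule, had RUNX1, Med12 and p300 peaks in both stages and no CTCF peak in either. No CTCF peak was found at a ribosomal protein gene without p300, against 3.75% of all genes in LP cells and 3.89% in Phase 1 cells. The members without p300 were only the 7 in LP cells and 6 in Phase 1 cells that had none of the 4 factors. Their absence of CTCF is thus too small a count to describe the family. Among the genes that had p300, CTCF was present at 37 of 79 (46.8%) in LP cells, compared with 39.5% of all genes with p300, and at 38 of 80 (47.5%) in Phase 1 cells, compared with 36.4%. Measured against genes with p300, the excess of CTCF over the background was thus smaller than against all genes.

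**Figure D1:**
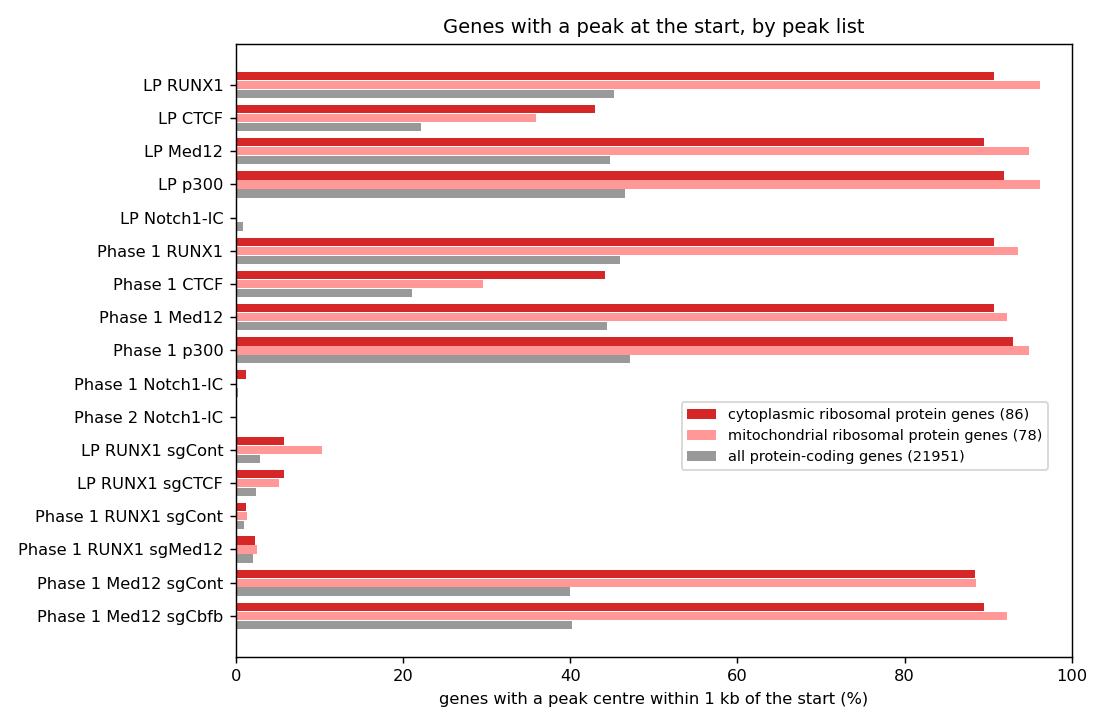
Bars give the percentage of genes with a peak centre within 1 kb of the start in each of the 17 peak lists, for the 86 cytoplasmic ribosomal protein genes, 78 mitochondrial ribosomal protein genes and 21951 protein-coding genes. RUNX1, Med12 and p300 bars of the ribosomal protein genes reach about 90% in the unguided lists, CTCF bars 43.0% and 44.2%, and the Notch1-IC and guided RUNX1 bars of the cytoplasmic family reach 5.81% at most.

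No RUNX1, Med12 or p300 peak was found in either stage at 6 genes, which had no peak in any of the 17 lists. Of these, 4 are copies, and most are known from other tissues. Rpl10l is an autosomal copy of the X-linked Rpl10 known from the testis, Rpl39l is a testis paralog of Rpl39, Rpl3l is the striated muscle form of Rpl3, and Rps27rt is a retrogene. The remaining pair, Rps2 and Rpl17, are ordinary subunit proteins whose gene records begin well before a second annotated start. At Rps2 (chr17:24718116-24721929) the peaks lay 1868 bp (RUNX1, score 209.4), 1901 bp (Med12, 261.7) and 1870 bp (p300, 164.3) into the record in LP cells, next to a protein-coding transcript that starts at 1947 bp. At Rpl17 (chr18:74998558-75003381) they lay at 1933 bp (RUNX1, 73.5), 1947 bp (Med12, 130.1) and 1974 bp (p300, 105.3), next to a transcript start at 1919 bp. Peaks of all 3 factors thus lay at a later start of both genes, outside the window of the record start.

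The start of the record also governed Rps14 and Rpl3. Rps14, a small-subunit protein whose human counterpart is lost in a deletion syndrome with anaemia, has a record that begins 27498 bp before its next cluster of annotated starts, and its single counted peak was p300 in Phase 1 (score 59.9, 29 bp from the record start). Rpl3, which reaches into the peptidyl transferase centre, has annotated starts 8462 and 11387 bp inside its record and counted peaks that lay 547 to 697 bp inside the record. When any protein-coding transcript start was accepted, LP RUNX1 was found at 82 of the 86 genes (95.3%, against 48.5% of all genes). LP Med12 was then at 81 (94.2%, against 47.9%), LP p300 at 82 (95.3%, against 50.0%) and LP CTCF at 39 (45.3%, against 25.9%).

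The height of the peaks was described by a percentile, the rank of the highest peak at a gene's start among the highest peaks at all protein-coding starts of the same list, so that the median over all genes is 50. In LP cells the median percentile of the ribosomal protein genes was 64.8 for RUNX1, 73.9 for Med12, 64.5 for p300 and 82.4 for CTCF. Their CTCF peaks thus ranked highest, with 10 of 37 at or above the 90th percentile and 9 below the median. In Phase 1 cells the medians were 53.3, 61.9, 59.0 and 80.2, and 12 of 38 CTCF peaks were at or above the 90th percentile. Mitochondrial ribosomal protein genes had lower medians in LP cells, of 45.9 for RUNX1, 50.3 for Med12, 50.3 for p300 and 53.5 for CTCF. Their Phase 1 medians were 46.0, 47.6, 47.2 and 70.2, so for CTCF they were closer to the cytoplasmic family in that stage. Translation factors, in contrast, had medians of 67.0 for RUNX1, 70.9 for Med12 and 70.5 for p300 in LP cells and of 65.0, 73.8 and 69.2 in Phase 1 cells, above the ribosomal protein genes in all but LP Med12. Ribosome biogenesis genes had lower medians for LP RUNX1 (50.4) and Med12 (59.0) and higher ones for LP p300 (68.7) and for LP CTCF (83.9 over 12 genes). The ranks of the family were thus not the highest of these lists for RUNX1, p300 or CTCF in LP cells.

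Rpl22 stood highest for RUNX1. This gene (chr4:152325742-152334071) encodes an RNA-binding protein of the large subunit that αβ T cell development requires, and its RUNX1 peak had a score of 432.1 in LP cells (percentile 99.3) and 535.3 in Phase 1 cells (99.6). It also had a peak in 14 of the 17 lists, more than any other member, and was the single member with RUNX1 in all 6 RUNX1 lists. The RUNX1 peaks next in rank were Rpl13a (247.1, percentile 93.0) and Rps19 (235.0, 91.8) in LP cells and Rps12 (280.2, 94.3) and Rps19 (235.1, 90.6) in Phase 1 cells. Rps19, the small-subunit protein most often mutated in Diamond-Blackfan anaemia, ranked highest for Med12, with 374.6 (percentile 98.5) in LP cells and 220.0 (97.8) in Phase 1 cells. Rpl41, the shortest ribosomal protein, ranked highest for p300, with 321.2 (95.9) in LP cells and 295.9 (93.4) in Phase 1 cells. Both stages thus had the same leading gene for each of these 3 factors.

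Other leading genes were Rpl41 (358.7, percentile 98.2) and Rpl13a (282.3, 95.5) for Med12 in LP cells, Rpl27 (174.8, 94.1) and Rps3a1 (157.3, 91.3) for Med12 in Phase 1 cells, and Rps15 and Rpl27 for p300 in both stages. Rps15 had p300 scores of 286.8 and 290.7 and Rpl27 of 269.4 and 287.6. At the other end stood Rps4x, the X-linked gene of a small-subunit protein. Its RUNX1 percentile was 10.8 in LP cells and 5.69 in Phase 1 cells, its Med12 percentile 12.1 and 10.5, and its p300 percentile 11.8 and 6.1. The CTCF peak of Rps4x, however, was at percentile 68.1 and 64.8, so low rank for the other factors did not extend to CTCF. Rpl37a, Rpl7 and Rpl3 completed the lowest ranks. Rpl37a was at percentile 14.5 for Phase 1 RUNX1, 19.5 for LP Med12 and 12.3 for Phase 1 Med12, and Rpl7 at 19.0 for LP RUNX1, 22.5 for LP Med12 and 24.1 for LP p300. Rpl3 was at 12.5 for LP p300, 5.14 for Phase 1 RUNX1, 5.9 for Phase 1 Med12 and 4.78 for Phase 1 p300. These Rpl3 peaks lay 547 to 596 bp inside the record, over its CTCF peak (centres at 581 and 588 bp), and not at an annotated start. Rpl6 was the next lowest after Rpl3 and Rps4x for Phase 1 p300, at 21.8.

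**Figure D2:**
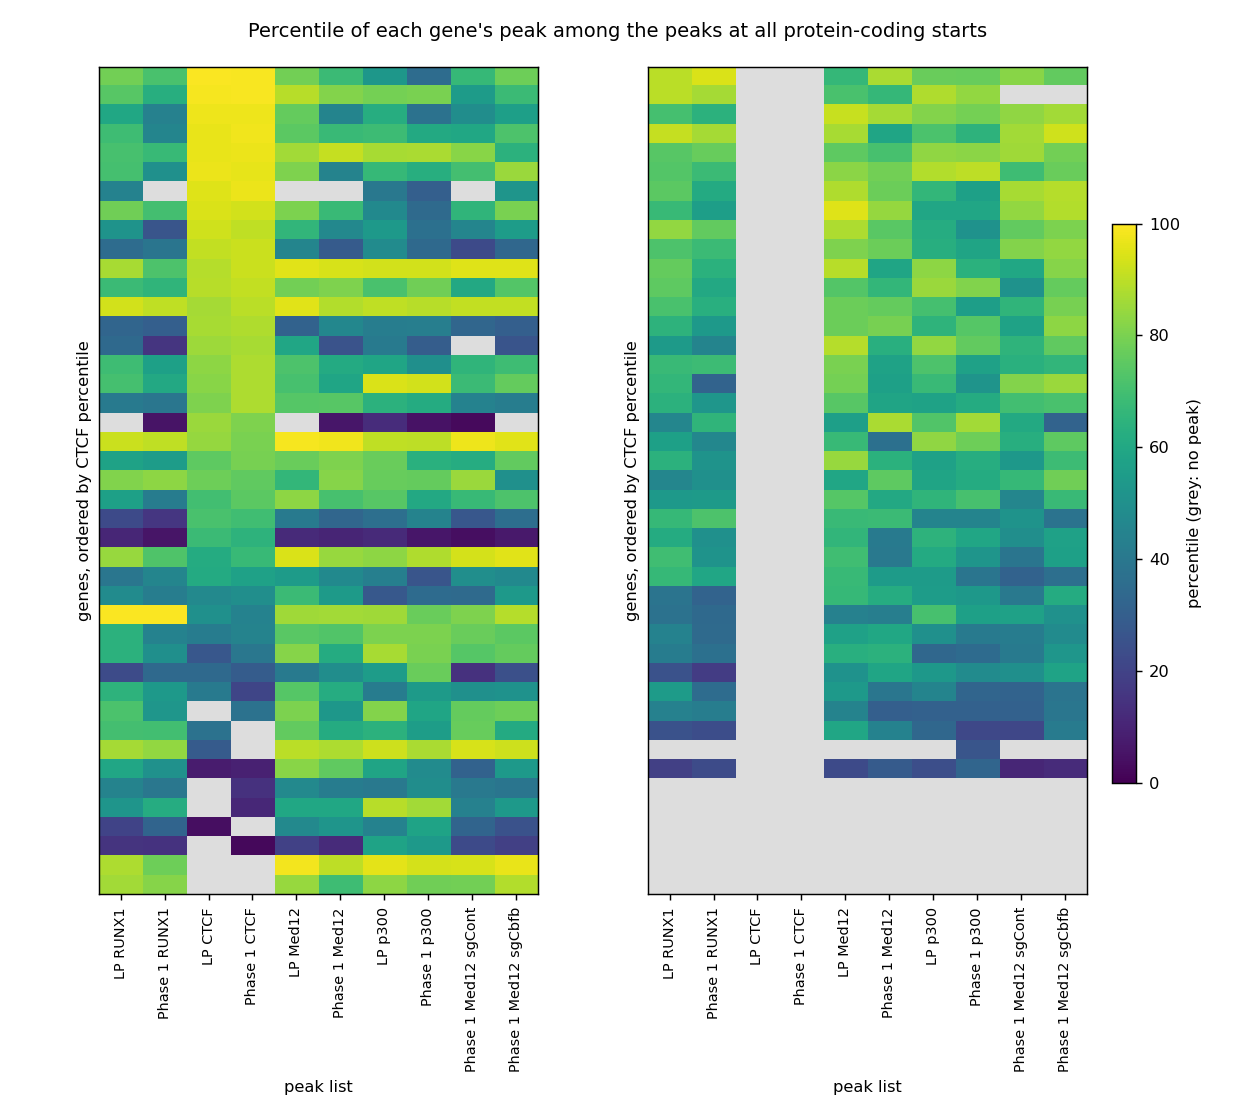
Each row is one of the 86 genes and each column a peak list, and the colour is the percentile of the gene's highest peak among those at all protein-coding starts (grey, no peak), with genes, not named, ordered by CTCF from the top of the left panel to the foot of the right. Strong CTCF peaks sit on genes with low as well as high RUNX1, Med12 and p300 ranks, and the last 6 rows hold no peak.

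The highest CTCF peaks of LP cells included those at Rplp0 (479.6), Rpl38 (403.3), Rps29 (345.7), Rpl26 (336.9), Rps3a1 (333.5), Rpl36 (314.6), Rpl11 (287.2) and Rpl5 (275.0). In Phase 1 cells Rpl38 (633.1) and Rplp0 (622.0) changed places at the top, and Rpl26 (493.5), Rps3a1 (479.0), Rpl36 (474.8) and Rps29 (448.7) were among those that followed. Rplp0 forms the base of the stalk that recruits elongation factors, Rpl38 is known for its part in the translation of Hox messenger RNAs, and Rpl5 and Rpl11 are the pair that, with 5S RNA, binds Mdm2 when ribosome assembly fails. Rplp0 was at percentile 99.3 and 99.0 for CTCF, yet its p300 peak was at 53.1 and 35.5. Members with CTCF had the other factors more often, with LP RUNX1 at 97.3% of them and at 85.7% of those without CTCF, and p300 at all 37 of them and at 85.7%. The members without CTCF that lacked RUNX1, Med12 or p300 in LP cells were the 7 with none of the 4 factors. They were Rpl10l, Rpl3l, Rpl39l, Rps27rt, Rps2, Rpl17 and Rps14, described above, and the difference rests on them. Every other member without CTCF had RUNX1, Med12 and p300, while RUNX1 was at 36 of the 37 with CTCF. Over all genes LP RUNX1 was at 80.6% of those with CTCF and 35.1% of those without. Where a peak was present, the median LP percentile of RUNX1 was 64.5 with CTCF and 65.4 without, that of Med12 76.1 and 72.1, and that of p300 64.2 and 65.2. In Phase 1 cells the medians were 50.3 and 55.9 for RUNX1, 61.7 and 63.0 for Med12 and 59.6 and 58.7 for p300. The lowest CTCF peaks were those of Rpl39 (19.0, percentile 3.52), Rpl35a (22.7, 7.61) and Rps18 (39.5, 27.2) in LP cells and of Rpl37a (19.4, 2.2), Rpl35a (27.5, 9.06) and Rps9 (30.1, 11.3) in Phase 1 cells.

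CTCF peaks sat upstream of the start, while the other factors sat over it. The median distance of the CTCF centre from the start was -99 bp in LP cells and -97.5 bp in Phase 1 cells, and 75.7% and 78.9% of the centres lay upstream, compared with 54.8% and 56.0% over all genes with a CTCF peak. The LP and Phase 1 medians were -39.5 and -152 bp at mitochondrial ribosomal protein genes and -71.5 and -63 bp at biogenesis genes. They were -30 and -42 bp at translation factors and -36 and -46 bp over all genes. A CTCF median upstream of the start was thus not particular to the family. RUNX1 centres had medians of -4 and -16 bp, Med12 centres of 4 and 2.5 bp and p300 centres of -6 and -2 bp. In LP cells 74.4% of the RUNX1 centres were within 100 bp of the start, compared with 57.7% over all genes, and 72.7% of the Med12 centres, compared with 54.8%. Within the same gene, the CTCF centre was a median of 92 bp upstream of the p300 centre in LP cells (28 of 37 genes upstream) and 83.5 bp upstream in Phase 1 cells (27 of 38), compared with 33 and 46 bp over all genes with both. The 2 peaks nonetheless overlapped at 27 of the 37 genes in LP cells (73.0%, and 73.2% over all genes), since peaks of these lists are 329 and 401 bp wide. At Rplp0 in LP cells the CTCF centre was at -148 bp and the p300 centre at -28 bp. At Rps29 CTCF lay farther out, at -558 bp.

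An exact CTCF string occurred in the 200 bp around the peak centre at 3 of the 37 LP peaks (8.11%), Rplp0 and Rps4x among them, and at the same 3 genes among the 38 Phase 1 peaks. Over all CTCF peaks near protein-coding starts the share was 6.09% in LP cells and 6.35% in Phase 1 cells, over all peaks of the lists 16.6% in both, and in windows 2 kb away 0.19% and 0.194%. With up to 1 mismatch the string was found at 13 of 37 LP peaks (35.1%, against 30.1% at all starts) and 15 of 38 Phase 1 peaks (39.5%, against 31.5%). The genes with such a string in both stages included Rpl3, Rpl5, Rpl7l1, Rpl22, Rpl36, Rpl38, Rplp0, Rps4x, Rps19, Rps24 and Rps29. Of the 13 LP strings, 9 ran along the gene's strand and 4 against it. In the printed promoters the string lay from -177 to -166 bp of the RefSeq start in Rplp0, from -122 to -111 bp in Rpl38 and from -63 to -52 bp in Rpl5. CTCF peaks with the string had a median score of 244 in LP cells and the 24 without it 159.

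Few members changed class between the stages. RUNX1 was at 77 genes in both (89.5%, against 43.3% of all genes). It was in LP alone at Rpl36 (score 82.5, background 1.89% of all genes) and in Phase 1 alone at Rpl3 (23.9, background 2.62%). These backgrounds are over all genes, and 52.2% of all genes had RUNX1 in neither stage, compared with 8.14% of members. Med12 was at 77 genes in both (89.5%, against 41.6%), at no gene in LP alone (background 3.10%) and in Phase 1 alone at Rpl3 (24.2, background 2.85%). p300 was at 79 genes in both (91.9%, against 44.0%), at none in LP alone (background 2.58%) and in Phase 1 alone at Rps14 (59.9, background 3.14%). CTCF was at 34 genes in both (39.5%, against 18.6% of all genes). It was in LP alone at Rps25 (50.3), Rpl27a (41.1) and Rpl39 (19.0), which is 3.49% of the members against 3.57% of all genes. In Phase 1 alone it was at Rpl29 (63.4), Rps27l (33.4), Rps9 (30.1) and Rpl37a (19.4), which is 4.65% against 2.46%. Among genes with CTCF in either stage, LP alone was 3 of 41 members and 784 of 5407 genes. Phase 1 alone was 4 of 41 members and 540 of 5407 genes. All 7 single-stage CTCF peaks of members were at or below percentile 37.8 among starts, and none of the 10 highest changed class. Of the single-stage peaks of RUNX1, Med12 and p300, that of Rpl36 lay 31 bp from its start, whereas those of Rpl3 and Rps14 hang on the record starts described above.

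The ranks of genes with a peak in both stages moved together. The highest peak at the start was taken from each list, and such peaks need not overlap. At Rpl10, for example, the RUNX1 centre was at -93 bp in LP cells and at -476 bp in Phase 1 cells. From LP to Phase 1 the percentile of the RUNX1 peak was lower at 62 of 77 ribosomal protein genes, with a median change of -6.62 points, compared with 0.343 over all 9501 genes with both peaks. The Med12 percentile was lower at 59 of 77 genes (median -7.39 points, against -0.462 over all genes) and the p300 percentile at 56 of 79 (median -4.34, against -0.0987). For CTCF it was higher at 21 of 34 genes (median 0.983, against -1.44). The family began above the median, so genes of the same initial rank are also of use: all genes whose LP percentile lay between the members' quartiles changed by a median of 0.0339 for RUNX1, -2.19 for Med12 and -0.715 for p300. Mitochondrial ribosomal protein genes changed by -0.978, -3.04 and -2.36 points and translation factors by -3.06, -4.31 and -3.21, in the same direction as the cytoplasmic family and by less. Ribosome biogenesis genes changed by -3.57 points for RUNX1, 0.797 for Med12 and -0.265 for p300. A percentile is relative to the other genes of its list, so a lower one does not give the change in bound protein.

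Single genes varied widely around these medians. The Med12 percentile fell most at Rps29, from 80.5 to 44.7, and it also fell at Rpl7l1, Rps23 and Rpl9, with changes of -33.8, -30.3 and -30.1 points. The RUNX1 percentile fell most at Rpl28 (-34.4 points), Rpl11 (-25.0) and Rpl26 (-23.4). Rpl30 went the other way for each of the 3 factors, by 19.7 points for RUNX1, 30.8 for Med12 and 13.2 for p300, and was the gene with the largest gain for RUNX1 and Med12. Rpl4 gained 11.4 points for RUNX1 and 22.0 for p300. These genes were chosen after their changes were seen.

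**Figure D3:**
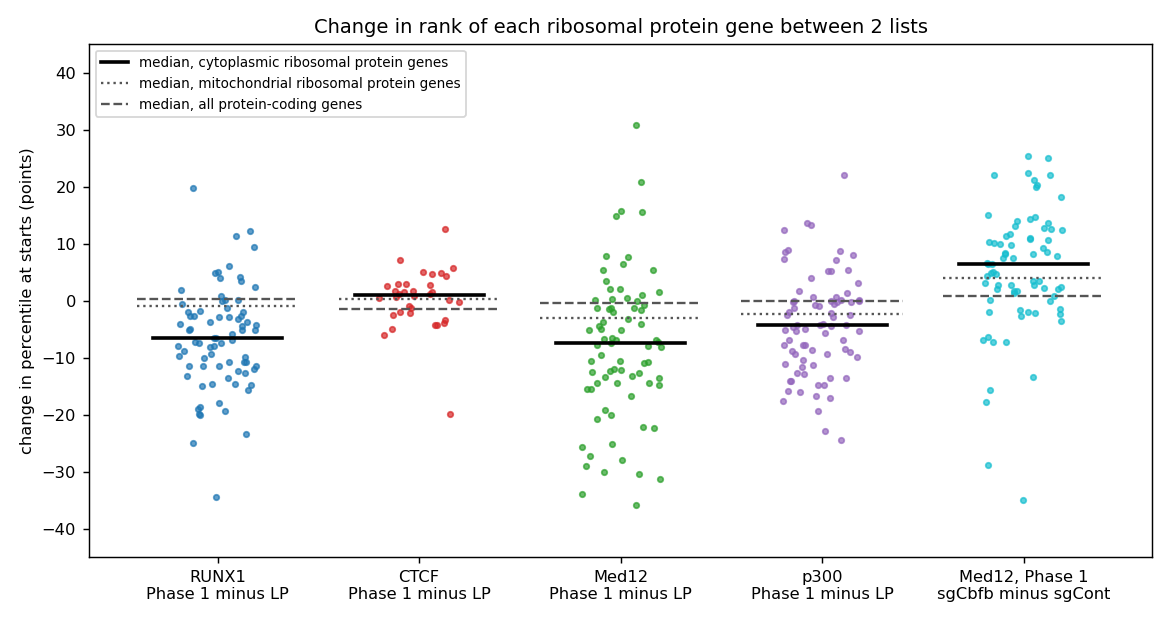
Points are ribosomal protein genes with a peak in both lists, and the vertical axis is the change in percentile, in points, from the first list to the second, with black bars at their median, dotted lines at the median of mitochondrial ribosomal protein genes and dashed lines at that of all genes (horizontal scatter is arbitrary). The black bars lie at -6.62 for RUNX1, 0.983 for CTCF, -7.39 for Med12 and -4.34 for p300 between stages and at 6.45 for Med12 between guides.

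In the guide cultures Med12 covered the family much as in unguided cells. With sgCont in Phase 1 a Med12 peak lay at 76 of 86 genes (88.4%, against 40.0% of all genes) and with sgCbfb at 77 (89.5%, against 40.2%). In both lists it lay at 75 genes (87.2%, against 37.7%). Rpl3 had it with sgCont alone (score 17.8, background 2.23%) and Rpl36 (64.2) and Rpl7l1 with sgCbfb alone (background 2.47%). Rpl36 had a Med12 peak in neither unguided stage, so among the Med12 lists it appeared with sgCbfb only. Among the 75 shared genes the percentile was higher with sgCbfb at 57 and lower at 18, with a median change of 6.45 points, compared with 0.792 over all genes and 0.0444 over genes of the same initial rank. Mitochondrial ribosomal protein genes changed by 3.96 points, biogenesis genes by 3.84 and translation factors by 0.976. The largest gains were at Rpl21 (25.4 points) and Rps28 (25.1) and the largest losses at Rpl37 (-34.9) and Rpl30 (-28.8). As a measure of how far 2 lists of the same stage can differ, the change from unguided Phase 1 to sgCont had a median of -2.69 points over 76 genes, close to the -2.74 points of all 8435 genes with both peaks, and single genes moved from -44.0 (Rpl35a) to 27.5 points (Rpl18). This comparison shares the unguided Phase 1 list with the stage comparison and the sgCont list with the guide comparison.

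The RUNX1 lists of the guide cultures were short, of 874 to 2094 peaks, and held few members. In LP cells 5 genes had a RUNX1 peak with sgCont (5.81%, against 2.93% of all genes) and 5 with sgCTCF (5.81%, against 2.40%). Rpl22 (53.3 and 43.0) and Rps19 (21.8 and 21.3) were among those that had it with both guides. The genes with sgCont alone (background 1.25%) included Rps27 (21.9), while Rpl41 (33.8) and Rpl22l1 (21.1) had it with sgCTCF alone (background 0.715%). In Phase 1 cells 1 gene, Rpl22 (47.0), had a RUNX1 peak with sgCont (1.16%, against 0.961%) and 2 genes, Rpl22 (42.6) and Rps19 (21.7), with sgMed12 (2.33%, against 2.05%), so that none was in sgCont alone (background 0.264%) and Rps19 was in sgMed12 alone (background 1.35%). All the genes that entered these short lists had RUNX1 peaks in both unguided stages, as did 77 of the 86 members (89.5%), so this hardly sets them apart. The shares of members in these lists were too small to set the guides apart.

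Notch1-IC peaks at starts were rare in the family and over all genes. No member had a peak in LP cells (background 0.788%), 1 of 86 had one in Phase 1 cells (1.16%, against 0.210% of all genes) and none in Phase 2 cells (background 0.109%). The gene was Rpl23 (chr11:97777527-97782437), a large-subunit protein also known to bind Mdm2, and its peak (chr11:97782415-97782655) was 98 bp upstream of the start. The score of 16.5 was close to the lowest score kept in any list, 15, and only percentile 14.1 among starts with a Notch1-IC peak. The RBPJ string printed above lay 6 bp from the centre of this peak. RBPJ is the protein through which Notch1-IC contacts DNA, and its string was found within 100 bp of the centre at 36.2% of the 152 peaks of that list and at 5.92% of windows 2 kb away. RUNX1, Med12 and p300 were all present at Rpl23 in both stages, with p300 at percentile 88.4 in LP cells and 90.1 in Phase 1 cells.

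What the promoters share was read from the RefSeq promoter table, which held 66 of the 86 members and 16522 protein-coding genes, from 250 bases before to 50 bases after the start. A TOP start, taken as a C followed by at least 4 pyrimidines and beginning within 5 bases of the start on the gene's strand, was present at 30 of 66 members (45.5%) and 21.8% of all genes. The ETS string CCGGAAG, on either strand, was present at 26 members (39.4%) and 13.4% of all genes, the SP string GGGCGG at 62.1% and 51.0%, and the YY1 string AAGATGGCG at 4 members, Rpl13a, Rpl35a, Rpl7l1 and Rps27 (6.06% and 2.25%). The NRF1 string was present at 9.09% and 7.44%, the RBPJ string GTGGGAA at 10.6% and 7.14%, the exact CTCF string at Rplp0 and Rps4x (3.03% and 0.678%), and the TATA string TATAAA at 10.6% and 14.3%. The ETS string and the TOP start thus had the widest margins over all genes in shares of the promoters, by 26.0 and 23.7 points. With the GENCODE record starts of all 86 members in place of the RefSeq starts, the ETS string was present at 26.7% of members and 10.8% of all genes, the SP string at 46.5% and 43.0%, and the TOP start at 26.7% and 19.0%. This change adds genes as well as moving the start. For the 66 members and 16522 genes of the RefSeq table alone, the GENCODE start gave the ETS string at 27.3% and 11.3%, the SP string at 50.0% and 44.1% and the TOP start at 24.2% and 19.2%, so with the same genes the margin of the TOP start was 5.04 points in place of 23.7. Strings of different names were counted separately and may overlap.

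RUNX strings were rare at these RUNX1 peaks. TGTGGTT or TGCGGTT, on either strand, was found in 3 of 66 member promoters, Rpl27a, Rps2 and Rps3a1 (4.55%, and 7.41% over all genes). In the 200 bp around the RUNX1 centre it was found at 2 of 78 members in LP cells, Rpl4 and Rpl36al (2.56%), and at 4 of 78 in Phase 1 cells, Rpl4, Rpl27a, Rpl36al and Rps3a1 (5.13%). The corresponding shares were 5.73% and 6.76% over all RUNX1 peaks near starts and 27.2% and 31.2% over RUNX1 peaks elsewhere. The RUNX1 peak of Rpl22, the strongest of the family, was not among those with a string. A string match is a description of letters, and the lack of one in this window says nothing about how RUNX1 was recruited.

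CTCF counts were also split by neighbouring genes and by intron content. In each split the group with the higher share in LP cells had the lower share in Phase 1 cells. Whether either feature bears on CTCF was not tested. Another protein-coding start lay within 1 kb of 16 members, among them Polr3a beside Rps24 and Med22 beside Rpl7a, and for these a peak cannot be given to one gene. CTCF was present at 7 of the 16 in LP cells (43.8%) and at 30 of the other 70 (42.9%), and in Phase 1 cells at 37.5% and 45.7%. Annotated snoRNA genes, which ribosomal protein genes often carry in their introns, lay inside 30 members, of which 46.7% had CTCF in LP cells and 40.0% in Phase 1 cells, compared with 41.1% and 46.4% of the other 56. As for the 1 kb limit, the outermost centres inside it were those of Rps10 (RUNX1 in Phase 1, -935 bp, score 124.6) and Rpl34 (CTCF in LP, 884 bp, 55.5), and the nearest outside were the CTCF peaks of Rps2 (LP, 1070 bp, 46.8) and Rpl7 (LP, -1097 bp, 81.9).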

How the data were processed

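ChIP-seq peak lists of Cas9-LP cells were used. Per the labels and the study's methods, the authors aligned reads to mm10 with Bowtie 1.1.1, called peaks with HOMER in factor mode against a control, kept peaks reproducible between the 2 replicates by irreproducible discovery rate, and deposited 1 list per group with a normalized peak score for each peak. The lowest score was 15. The Bowtie setting dropped reads with many equal matches, which can remove signal over exons shared with processed pseudogenes.

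Members, comparator lists and strings were chosen with earlier results of these data known. Peak centres within 1 kb of a GENCODE M21 gene start were counted, and the highest-scored peak per gene was ranked, with Python 3.11.15, pandas 2.3.3, numpy 2.4.6, pysam 0.24.0 and samtools 1.23.1. Peak assignment was tested on planted peaks. Promoter sequences came from RefSeq (GRCm38), and no peak passed a chromosome end of that genome. Depth per sample was not used. No test was run, because replicates are merged. Named genes were those with the 10 highest CTCF scores, no RUNX1, Med12 or p300 peak, peaks in 1 stage or guide alone, any Notch1-IC peak, the 3 highest and 3 lowest percentiles per unguided list, the most lists, or centres nearest the 1 kb limit. Genes named for a change in percentile were chosen after it was seen. Printed promoters came from these genes. Some genes that met these rules are counted but not reported by name here.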

Additional observations from a re-analysis of the deposited data

How the results depend on the processing

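Of 244 recomputed counts and shares, 224 stayed within 1.5 times the reported value. The counts of members with RUNX1, CTCF, Med12 or p300 in each unguided list stayed within that limit under all alternatives (windows of 500 bp and 2 kb, any protein-coding transcript start, overlap in place of the centre, a minimum score of 30, core genes, and, added after seeing the data, the 70 members with no other start within 1 kb). For RUNX1, Med12 and p300 some of these outcomes were fixed in advance. The 77 core genes and the 70 members leave out too few genes for those counts to pass the limit. The 2 kb window and the overlap rule cannot raise them past the 86 genes. For CTCF the core outcome was fixed as well, since the core genes leave out too few members for its counts to pass the limit. Such outcomes, and counts that were 0 under every setting, are among the 224 and are no check. LP CTCF was at 30 members with the 500 bp window and at 44 with 2 kb, against 16.6% and 29.3% of all genes. The small counts moved. With a minimum score of 30, members with a peak numbered 0 for Phase 1 Notch1-IC, 2 and 3 for LP RUNX1 with sgCont and sgCTCF, and 1 for Phase 1 RUNX1 with sgMed12. Members in 1 stage or list alone then numbered 0 for Med12, 3 for p300, 1 for RUNX1 with sgCont and sgCTCF and 0 with sgCont and sgMed12. With any transcript start they numbered 1 for RUNX1, 0 for Med12, 0 for p300 and 2 for RUNX1 with sgCont and sgMed12. With the 500 bp window they numbered 0 for Med12 and 2 for p300, and with lists of equal length 2 for p300. From the GENCODE start the NRF1 string was at 5.81% of members and 5.98% of all genes, the RBPJ string at 6.98% and 6.07% and the TOP start at 26.7% and 19.0%. With that start for the genes of the RefSeq table alone, added after seeing the data, the TOP start was at 24.2% and 19.2% and the NRF1 string at 6.06% and 6.40%. Among core genes the RBPJ string was at 7.02%, and at 7.14% of all genes. The small excess of members for the NRF1 string from the RefSeq start thus turned into a deficit from the GENCODE start, and that for the RBPJ string did so among core genes. The cause of the other shifts was not tested.

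No paired analysis was possible because each list merges both replicates, and for the same reason no replicate was left out. The RUNX1 lists of the guide cultures and the Notch1-IC lists are short, and a start without a peak in them is not shown to be unbound. The same holds for the longer lists, which keep only peaks reproducible between replicates. Stage and guide classes, such as those of Rpl36, thus describe called peaks.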

Other observations

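Few peaks were called at processed copies of these genes. Reads with many equal matches had been dropped, which can hide signal there. Of 289 pseudogenes named Rpl or Rps with the ending -ps, 8 had a CTCF peak within 1 kb in LP cells and 8 in Phase 1 cells (2.77% each), the highest at Rpl5-ps2, with scores of 280.5 and 281.2. The CTCF centre nearest to a pseudogene start was at -370 bp (Rps19-ps10 in Phase 1 cells). The share of random windows with a peak was not computed. RUNX1 was at 2 in LP cells (0.692%) and at none in Phase 1 cells, Med12 at 1 (0.346%) and 2 (0.692%), and p300 at 1 (0.346%) and 3 (1.04%). Rpl12-ps2 had RUNX1 (29.1), Med12 (34.0) and p300 (91.8) peaks in LP cells, 505 to 560 bp from its start.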
